A study of Mus musculus with 12 samples.

Results

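The tricarboxylic acid (TCA) cycle and mitochondrial fatty acid oxidation were followed through 43 genes in sorted germinal center B cells. The list held 24 genes of the TCA cycle, including the entry of pyruvate, and 19 of fatty acid oxidation, sorted by the enzyme step each gene serves; the list uses no measured value, but it was drawn up with earlier results of these data known. All 43 were among the 12212 gene symbols listed for every library. All 43 also passed the minimum on counts that left 12081 genes to test.

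In the TCA cycle, acetyl-CoA is joined to oxaloacetate to give citrate, which is oxidised stepwise in the mitochondrial matrix while the released electrons pass to the respiratory chain. Long fatty acids enter the matrix bound to carnitine and are then shortened in repeated rounds of dehydrogenation, hydration, renewed dehydrogenation and thiolysis, each of which delivers acetyl-CoA to the cycle. Germinal center B cells, which multiply and mutate in the dark zone and compete for T cell help in the light zone, have been described as cells that rely on oxidative metabolism and take up fatty acids.

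The mice were of the strain NZBWF1/J, a hybrid of New Zealand strains that develops lupus-like disease, and germinal center B cells of the dark zone or the light zone were sorted from their spleens. Each of the 4 groups held 3 libraries made from 1000 cells each, control and treated for either zone. In the treated groups the mice received CTLA4-Ig, a fusion protein that binds CD80 and CD86 and so blocks CD28 costimulation, together with anti-CD40L, an antibody to the CD40 ligand of helper T cells. They were given 6 doses of 200 µg of CTLA4-Ig and 6 doses of 250 µg of anti-CD40L over 2 weeks, starting when the mice were 18 weeks old, and the controls were untreated; the sources used here do not give the age of the controls. Nor do they say whether replicate numbers stand for separate mice, so every p-value below measures only the spread between these libraries, which may be technical. In such bulk samples fewer cells of a type and less RNA per cell cannot be told apart.

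Library totals ran from 16032746 to 26837714 counts. Levels are given as CPM, scaled to the same library size by dividing counts by the library total and by a TMM factor. edgeR estimates this factor so that most genes keep their level between libraries. By library totals alone, 3 counts corresponded to 0.112 to 0.187 CPM, a floor that covers counting error only. The TMM factor shifts this floor in each library, for example to 0.206 CPM in dark zone control replicate 1. Replicates 1 and 2 of dark zone treated and replicate 2 of light zone treated (columns S38, S39 and S37 of the deposited data) stood apart from the other 9 libraries: 12188 to 12195 symbols were above 0 in them, against 11384 to 11960 elsewhere, and their TMM factors were 1.35 to 1.44, against 0.815 to 0.988. All 12 germinal center B cell markers were above 0 in every library, with Cd79a, part of the B cell receptor, at 1689 to 3278 CPM. They summed to 7128 to 7875 CPM in the 3 libraries that stood apart and to 7009 to 11625 CPM in the other 9. The lowest of these 9 was light zone control replicate 1, and the rest held 9235 CPM or more. None of 11 listed macrophage markers was at 0 in the 3 libraries that stood apart, where they summed to 104 to 265 CPM, whereas 2 to 5 of them were at 0 and they summed to 17.9 to 119 CPM in the other 9. None of 10 listed T cell markers was at 0 in these 3 libraries (141 to 312 CPM in sum) and 0 to 5 were at 0 in the other 9 (86.9 to 226 CPM). Markers of plasma cells summed to 1310 to 2411 CPM in the 3 and 6431 to 11545 CPM in the 9, and those of red blood cells to 62.4 to 265 CPM in the 3, 1391 CPM in dark zone control replicate 1 and 3.02 to 10.2 CPM in the remaining 8. Since 2 of the 3 dark zone treated libraries and 1 of the 3 light zone treated libraries are among those that stood apart, the main treatment differences are given with all 12 libraries and with the 9; the part of these differences in the members' values was not tested. With the 9 libraries, dark zone treated is a single library, whose spread is assumed to be that of the other groups. Replicates 1 and 2 of dark zone treated had a Pearson correlation of 0.973 in log2 CPM over the tested genes. The other pairs of replicates within a group were at 0.662 to 0.822. Dark zone treated may therefore hold fewer than 3 independent values, which bears on its tests, its overlap counts and its spread below.

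**Figure D1:**
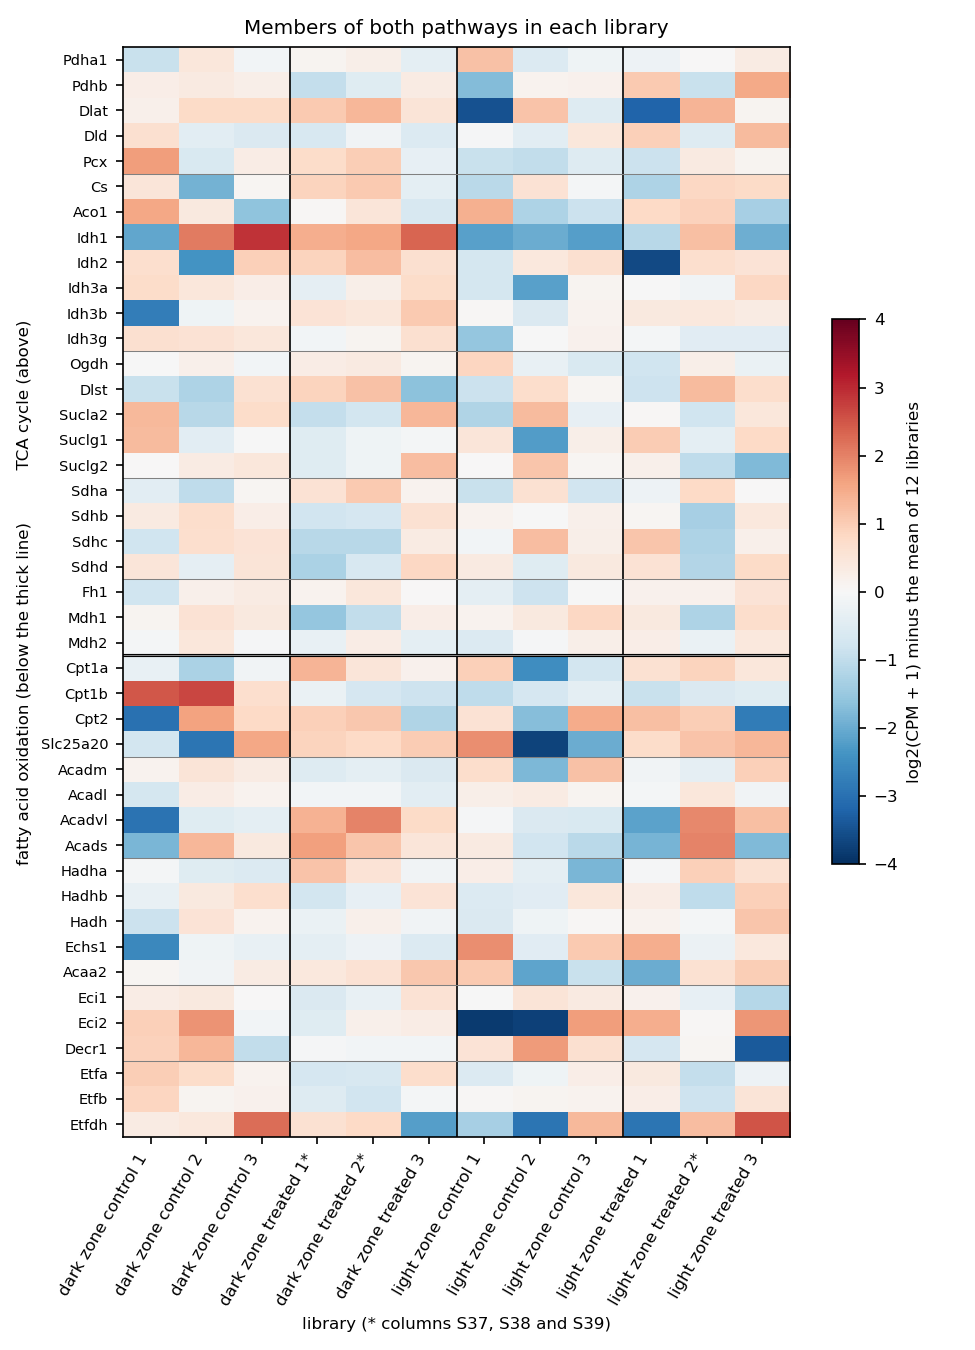
Levels of the 43 members in each library: rows are genes, grouped by enzyme step (thin lines) and pathway (thick line), columns are libraries, and colour is log2(CPM + 1) minus the gene's mean over 12 libraries. Asterisks mark the 3 libraries that stood apart, where Sdhb, Sdhc, Sdhd, Mdh1, Etfa and Etfb are pale to dark blue.

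The summed levels of the members were compared first. Under the TMM scaling the 24 TCA genes summed to 5404, 5773 and 5603 CPM in dark zone control, 2949.7, 3811 and 5909 CPM in dark zone treated, 4449, 5036 and 5996 CPM in light zone control and 5649, 2949.5 and 6735 CPM in light zone treated. The 3 libraries that stood apart held the lowest sums, and the other 9 overlapped across the groups. Abundant genes weigh most in a sum, and Mdh1 alone made up 16.9% to 43.6% of it. The median of the 24 TCA genes was 68.9, 90.1 and 76.2 CPM in the 3 libraries and 67.4 to 127 CPM in the 9. That of the 19 fatty acid oxidation genes was 24.7, 29.5 and 28.7 CPM against 9.01 to 47.1 CPM. Both medians thus overlapped under TMM scaling. Scaled by library totals alone the sums were 3930.0 to 5932 CPM in the 9 and 4181 to 5149 CPM in the 3, so that under this scaling the 3 lay inside the range of the 9. Fatty acid oxidation genes summed to 950.5, 954 and 976 CPM in the 3 libraries and to 1022 to 1542 CPM in the 9; with library totals the ranges were 1284 to 1407 and 881 to 1358 CPM and overlapped.

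**Figure D2:**
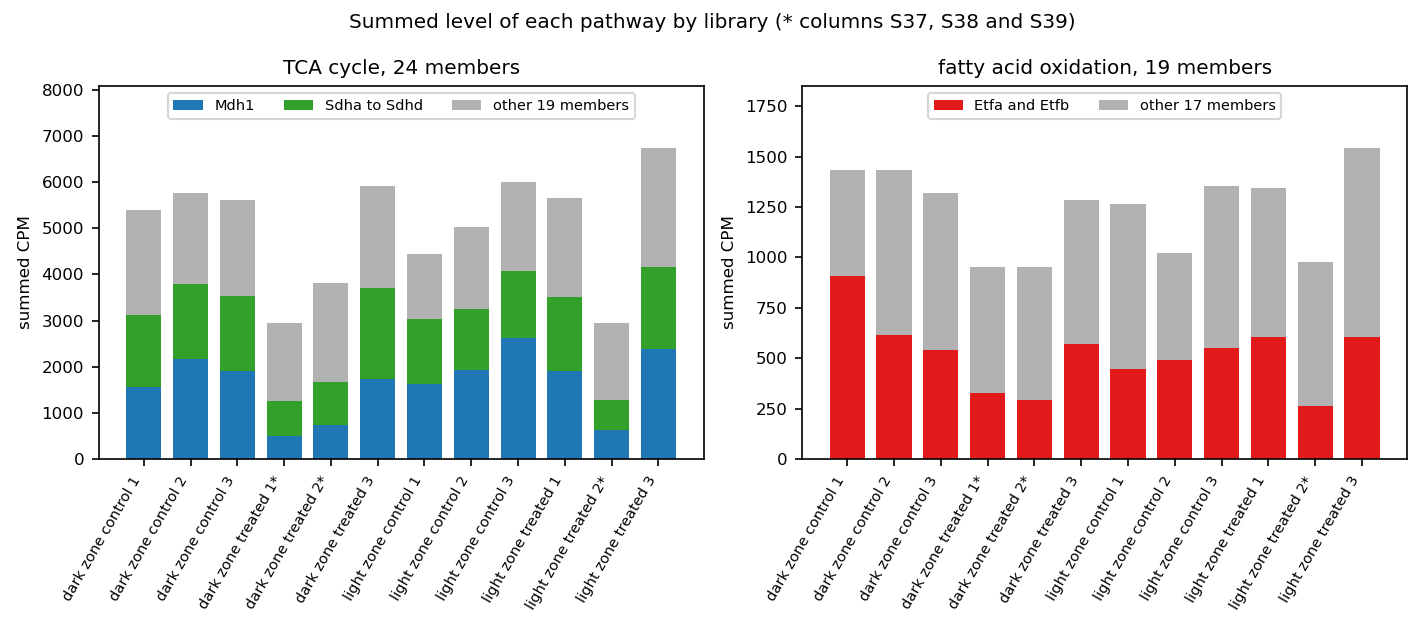
Summed CPM (TMM scaling) of the 24 TCA cycle members and the 19 fatty acid oxidation members in each of the 12 libraries, split by colour into the members named in the legend. The lowest TCA bars, 2949.5 to 3811 CPM, are the 3 libraries with an asterisk, and the blue part, Mdh1, makes up 16.9% to 21.1% of them, against 29.1% to 43.6% in the other 9.

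No member passed the test in any comparison. By edgeR's quasi-likelihood test with Benjamini-Hochberg adjustment over 12081 genes, 0 genes had an adjusted p under 0.05 for treatment in the dark zone, treatment in the light zone, light against dark zone in controls, light against dark zone in treated mice, or the difference between the treatment effects of the zones. The members at an unadjusted p under 0.05 numbered 2, 1, 4, 1 and 2 of 43 in this order, where 8.9%, 7.36%, 4.93%, 2.06% and 2.28% of all genes reached it. DESeq2 called 72, 216, 113, 1 and 16 genes (0.596%, 1.79%, 0.935%, 0.00828% and 0.132%), among them Cpt1b for treatment in the dark zone, Idh1 for treatment in the light zone, and both for light against dark zone in controls. With 9 libraries DESeq2 called 1.81%, 3.59%, 0.965%, 3.04% and 1.91% of all genes, and among the members Cpt1b for dark zone treatment and Cpt1b and Idh1 between the control zones. limma-voom with sample quality weights called 3073 genes for treatment in the dark zone, 25.4% of all, of which 9 were members, and 0 in the other comparisons.

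With treatment in the dark zone, 10 of 24 TCA genes and 7 of 19 fatty acid oxidation genes had a positive log2 difference, and the medians were -0.23 and -0.19, beside 0.06 over all genes. Without the 3 libraries the counts were 14 and 10 and the medians 0.08 and 0.04, beside -0.11 over all genes. Treatment in the light zone gave 15 of 24 TCA genes and 11 of 19 fatty acid oxidation genes with a positive difference, with medians of 0.29 and 0.39 beside 0.10 over all genes; with 9 libraries these were 18 and 12, with medians of 0.15 and 0.26 beside -0.04. Between the zones of control mice, light minus dark, 10 TCA genes and 8 fatty acid oxidation genes were positive, with medians of -0.17 and -0.11 beside 0.00 over all genes. The same contrast in treated mice had 13 and 9 positive genes, with medians of 0.02 and -0.04 beside 0.05; with 9 libraries these were 12 and 13, with medians of -0.04 and 0.38 beside 0.09. Scaling by library totals moves the median of all genes to 0.51 in the dark zone and 0.39 in the light zone; the numbers of positive TCA and fatty acid oxidation genes were then 16 and 11 in the dark zone, with medians of 0.22 and 0.30, and 18 and 15 in the light zone, with medians of 0.65 and 0.52. The sign of both dark zone medians thus depended on the scaling, and set against all genes they were -0.29 and -0.25 with TMM and -0.29 and -0.22 with library totals. Between the zones of treated mice library totals gave 7 and 9 positive genes and medians of -0.21 and -0.27, beside -0.13 over all genes. These comparisons share libraries pairwise, so their signs are not independent of each other.

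Pyruvate enters the cycle through the pyruvate dehydrogenase complex, whose E1 subunits are Pdha1 and Pdhb, whose E2 is Dlat and whose E3 is Dld, or through pyruvate carboxylase, Pcx. Pdhb stood at 163, 175 and 161 CPM in dark zone control, 69, 97 and 172 CPM in dark zone treated, 40.3, 148 and 154 CPM in light zone control and 279.7, 72.2 and 392 CPM in light zone treated. Control light zone libraries lay below control dark zone libraries in every case, by a log2 difference of -0.54 ± 0.64 (SE), which is within the spread. For Pdhb the treatment difference was -0.56 ± 0.64 in the dark zone and 1.12 ± 0.64 in the light zone, and the difference between these effects was 1.68 ± 0.91 (edgeR adjusted p = 1). Without the 3 libraries, in which Pdhb was at 69 to 97 CPM, these values were 0.07, 1.57 and 1.5, so the sign in the dark zone depended on those libraries. Dld, an E3 subunit that other 2-oxoacid dehydrogenases also use, was at 131, 62.6 and 56.8 CPM and 53.5, 76.7 and 57.2 CPM in dark zone control and treated, and at 82.3, 63.4 and 115 CPM and 165, 59.1 and 204 CPM in light zone control and treated. Its highest levels were light zone treated replicates 1 and 3, and the remaining treated library, which stood apart, lay below all 3 controls. The difference between the effects was 1.13 ± 0.71, and 1.63 ± 0.77 with 9 libraries (edgeR adjusted p = 1 in both). Pdha1 ranged from 22.8 to 97.9 CPM with overlapping groups; it shares 603 exon bases with Map3k15 on the opposite strand, and the kits do not keep strand. Dlat was at 0 in light zone control replicate 1 and at 0.234 CPM in light zone treated replicate 1, with 11.9, 18 and 18 CPM in dark zone control. Pcx stayed at 10.4 CPM or less in all 12 libraries.

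Citrate synthase, Cs, which makes citrate, was at 152, 28.6 and 116 CPM in dark zone control, 203, 228 and 82.5 CPM in dark zone treated, 51.2, 165 and 103 CPM in light zone control and 46, 195 and 184 CPM in light zone treated. In the 3 libraries that stood apart it was above all other 9 under TMM scaling and with library totals, but the 9 themselves spanned 28.6 to 184 CPM. The treatment difference of Cs in the dark zone was 0.79 ± 0.72 with 12 libraries and -0.24 with 9, so its sign depended on those libraries. Aco1, the cytosolic aconitase that doubles as an iron sensor, ranged from 3.29 to 37.6 CPM, and all groups overlapped.

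Isocitrate dehydrogenases oxidise isocitrate to 2-oxoglutarate. Idh1, the cytosolic NADP-dependent enzyme (mm10 chr1:65158616-65186500, minus strand), was at 0.137, 19.5 and 35.1 CPM in dark zone control and 12.3, 13.2 and 23.6 CPM in dark zone treated. In light zone control it was at 0.0654, 0.230 and 0.0463 CPM, at or near the floor of 3 counts, and in light zone treated at 1.23, 10.1 and 0.258 CPM. All 3 light zone control libraries thus lay below all 3 light zone treated libraries, but 2 of the treated libraries were at or below 1.23 CPM, and the value of 10.1 CPM belonged to the library that stood apart. The groups of control dark zone and control light zone overlapped, since dark zone control replicate 1, the library with the high red blood cell markers, held 0.137 CPM. DESeq2 called Idh1 for treatment in the light zone (adjusted p = 0.0471) and for light against dark zone in controls (adjusted p = 0.000575), and edgeR did not (adjusted p = 0.674 and 1). Without the 3 libraries the DESeq2 adjusted p was 0.560 for light zone treatment and 0.00148 for the control zones. Fitted log2 differences of Idh1, such as 5.04 for light zone treatment, set a level against libraries at the floor and depend on the prior count, so no fold change is given. Idh1 values lay midway between whole numbers in 3 libraries.

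Idh3b, the beta subunit of the NAD-dependent enzyme of the matrix, was at 8.02, 53.4 and 67.1 CPM in dark zone control and 89.1, 83.2 and 127 CPM in dark zone treated. In the light zone it was at 63.3, 40.3 and 66.9 CPM in control and 80.8, 81.7 and 77.2 CPM in treated libraries. Treated libraries lay above control libraries in both zones, and this held for the treated libraries that did not stand apart. The differences were 1.22 ± 0.61 in the dark zone (edgeR adjusted p = 0.528) and 0.49 ± 0.60 in the light zone (edgeR adjusted p = 0.863), and 1.59 and 0.49 with 9 libraries. Leaving out dark zone control replicate 1, with its 8.02 CPM, gave the lowest of the dark zone leave-one-out values, 0.73. The catalytic subunit Idh3a and the gamma subunit Idh3g did not share this order. Idh3a was at 149.8, 122 and 106 CPM in dark zone control and 54.6, 19.1 and 96 CPM in light zone control, a log2 difference of -1.16 ± 0.55 between groups that did not overlap. Idh3g was at 329, 313 and 287 CPM and 71.5, 206 and 238 CPM in the same groups, a difference of -0.85 ± 0.42. Both missed the edgeR threshold (adjusted p = 1). Idh2, the NADP-dependent enzyme of the matrix, ran from 1.35 CPM in light zone treated replicate 1 and 4.4 CPM in dark zone control replicate 2 to 65.4 CPM, and its groups overlapped.

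From 2-oxoglutarate to succinate the cycle uses the 2-oxoglutarate dehydrogenase complex, with Ogdh as E1 and Dlst as E2, and succinyl-CoA ligase. Ogdh was among the steadier members of the dark zone, at 98.7, 114 and 90.7 CPM in control and 122, 127 and 107 CPM in treated libraries, while light zone control spanned 181, 80.4 and 64.3 CPM. Dlst was at 30.3 to 40.03 CPM in the 3 libraries that stood apart and at 4.45 to 26.7 CPM in the other 9. The ligase genes Sucla2, Suclg1 and Suclg2, which encode the ATP-specific beta, the shared alpha and the GTP-specific beta subunit, ranged from 39.5 to 231, 27.7 to 321 and 25.4 to 214 CPM. No comparison of 2 groups with 12 libraries separated any of these 5 genes.

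Succinate dehydrogenase, which is also complex II of the respiratory chain, is built from the flavoprotein Sdha, the iron-sulfur protein Sdhb and the membrane anchors Sdhc and Sdhd. Sdha (mm10 chr13:74322254-74350280, minus strand) was at 73.3, 48.3 and 103 CPM in dark zone control and 146, 202 and 108 CPM in dark zone treated, and at 52, 150.5 and 57.2 CPM and 83.9, 172 and 99.6 CPM in the light zone groups. All dark zone treated libraries lay above all dark zone controls, by 1.02 ± 0.51 on the log2 scale (edgeR adjusted p = 0.528; 0.55 with 9 libraries), and the light zone groups overlapped. Sdhb (mm10 chr4:140961203-140979193, plus strand) was at 861, 1081 and 804 CPM in dark zone control, 396, 419.7 and 1013 CPM in dark zone treated, 739, 653 and 761 CPM in light zone control and 698, 264 and 902 CPM in light zone treated. The low values, 264 to 419.7 CPM, were those of the 3 libraries that stood apart, and dark zone treated replicate 3 lay within the dark zone controls. Control light zone libraries lay below control dark zone libraries for Sdhb, by -0.35 ± 0.48, which is within the spread. Sdhc and Sdhd repeated the low values of Sdhb, at 44.9 to 49.2 and 164 to 253 CPM in the 3 libraries and 61.7 to 254 and 280.4 to 707 CPM in the other 9.

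These positions depend on the scaling, which the ratio of subunits within a library does not use. With library totals, the 3 libraries overlapped the other 9 for Sdhb, Sdhc and Sdhd and lay above them for Sdha. The ratio of Sdhb to Sdha counts was 1.53, 2.08 and 2.71 in the 3 libraries and 4.34 to 22.4 in the other 9, without overlap. This order already follows from the TMM-scaled levels. The 3 libraries held at most 419.7 CPM of Sdhb and at least 146 CPM of Sdha, and the 9 at least 653 and at most 150.5 CPM. Between dark zone control and dark zone treated the ratio was 11.8, 22.4 and 7.84 against 2.71, 2.08 and 9.38. Between the light zone groups it was 14.2, 4.34 and 13.3 against 8.32, 1.53 and 9.06. In both zones the treated libraries that did not stand apart thus had ratios inside the range of the controls. These are ratios of reads, not of molecules, since genes differ in length.

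**Figure D3:**
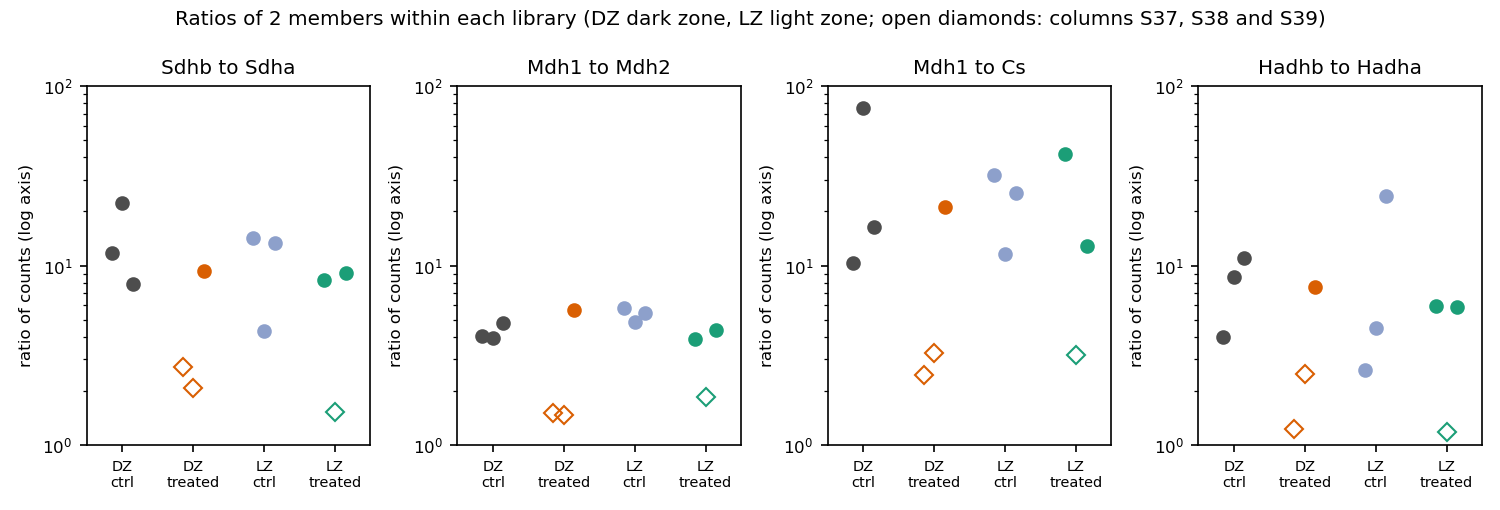
Ratios of the counts of 2 members within each library, on a log axis, for 4 pairs of genes and 4 groups of 3 libraries; each point is a library and no scaling enters the ratio. The open diamonds, the 3 libraries that stood apart, lie below all 9 filled circles in each panel. For Sdhb to Sdha they lie at 1.53 to 2.71 against 4.34 to 22.4. For Sdhb to Sdha, Mdh1 to Mdh2 and Mdh1 to Cs this order follows from the TMM-scaled levels of the 2 genes. No share over other pairs of genes was computed.

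The promoters of Sdha and Sdhd are shown because both hold the same motif, while the 3 libraries lay below the other 9 for Sdhd under TMM scaling and above them for Sdha with library totals, and overlapped them for either gene under the other scaling. The stretches run from 250 bases before to 50 bases after the RefSeq start site on GRCm38.p6, Sdha at chr13:74350191-74350490 and Sdhd at chr9:50603800-50604099, both on the minus strand. Capitals mark matches to the palindromic motif of NRF1, a factor of nuclear genes for mitochondrial proteins, and in Sdhd at the 3′ end the reverse complement of AAGGTCA, a site of the estrogen-related receptors (ERR).
Sdha: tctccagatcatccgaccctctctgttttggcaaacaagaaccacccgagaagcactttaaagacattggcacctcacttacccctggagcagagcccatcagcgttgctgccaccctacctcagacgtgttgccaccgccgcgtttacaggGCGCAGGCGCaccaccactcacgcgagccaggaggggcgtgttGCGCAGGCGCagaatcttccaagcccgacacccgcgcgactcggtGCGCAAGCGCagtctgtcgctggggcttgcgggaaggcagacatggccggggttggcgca
Sdhd: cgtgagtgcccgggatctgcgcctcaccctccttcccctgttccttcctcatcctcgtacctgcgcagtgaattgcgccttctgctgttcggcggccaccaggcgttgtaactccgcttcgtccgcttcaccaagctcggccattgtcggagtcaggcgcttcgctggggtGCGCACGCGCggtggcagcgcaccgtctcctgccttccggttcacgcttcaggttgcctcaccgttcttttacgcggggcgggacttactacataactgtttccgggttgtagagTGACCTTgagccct
Sdha holds several matches to the NRF1 motif and Sdhd holds 1. Promoters were found for 38 of the 43 members, 45 sequences in all, and were searched on both strands for these motifs and for the E-box CACGTG; no match in the printed stretches overlaps another. The NRF1 motif was in 6 member promoters, of Dld, Etfb, Etfdh, Sdha, Sdhd and Sucla2, which is 13.3% beside 4.6% of all 32851 promoters. The ERR site was in promoters of Acadm, Ogdh and Sdhd, 6.67% beside 4.72% of all, and the E-box in 8.89% beside 7.15%. The 4 promoters with an E-box belong to only 2 of the 38 genes, Ogdh and Pcx. Ogdh enters with several start sites whose stretches partly overlap and share a match, so the E-box share counts that match more than once. A match describes the letters only.

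Fumarase, Fh1, which hydrates fumarate to malate, was at 95.4, 190.4 and 209 CPM in dark zone control, 182, 229 and 167 CPM in dark zone treated, 125, 93.7 and 165 CPM in light zone control and 188, 188 and 244 CPM in light zone treated. Light zone treated libraries lay above light zone controls without overlap, by 0.69 ± 0.36 on the log2 scale (edgeR adjusted p = 0.687) and by 0.77 with 9 libraries, and the dark zone groups overlapped. Malate dehydrogenase has a cytosolic form, Mdh1, which belongs to the malate-aspartate shuttle, and a matrix form, Mdh2. Mdh1 (mm10 chr11:21556787-21572367, minus strand) was at 1570.3, 2173 and 1901 CPM in dark zone control, 498, 742 and 1743 CPM in dark zone treated, 1627, 1920.03 and 2615 CPM in light zone control and 1909.8, 622 and 2379 CPM in light zone treated. In the 3 libraries that stood apart Mdh1 was at 498 to 742 CPM, below the 1570.3 to 2615 CPM of the other 9. It was the only one of the 43 members below all 9 under both TMM scaling and library totals. Under TMM scaling 4 TCA and 2 fatty acid oxidation members lay below all 9, and 2 and 1 above. With library totals 7 TCA and 6 fatty acid oxidation members lay above all 9, and only Mdh1 below. The shares over all genes were not computed, so neither these counts nor the order of Mdh1 can be read as particular to the members. Mdh2 ran from 281 to 553 CPM and overlapped between all groups. The ratio of Mdh1 to Mdh2 counts was 1.48 to 1.85 in the 3 libraries and 3.90 to 5.80 in the 9. That of Mdh1 to Cs was 2.46 to 3.26 against 10.4 to 75.9. This last order follows from the levels, since the 3 libraries lay below the 9 for Mdh1 and above for Cs. The order for Mdh1 to Mdh2 follows from the TMM-scaled levels too. The 3 libraries held at most 742 CPM of Mdh1 and at least 330 CPM of Mdh2, and the 9 at least 1570.3 and at most 553 CPM. For Mdh1 the dark zone treatment difference was -0.92 ± 0.54 with 12 libraries and -0.10 with 9.

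**Figure D4:**
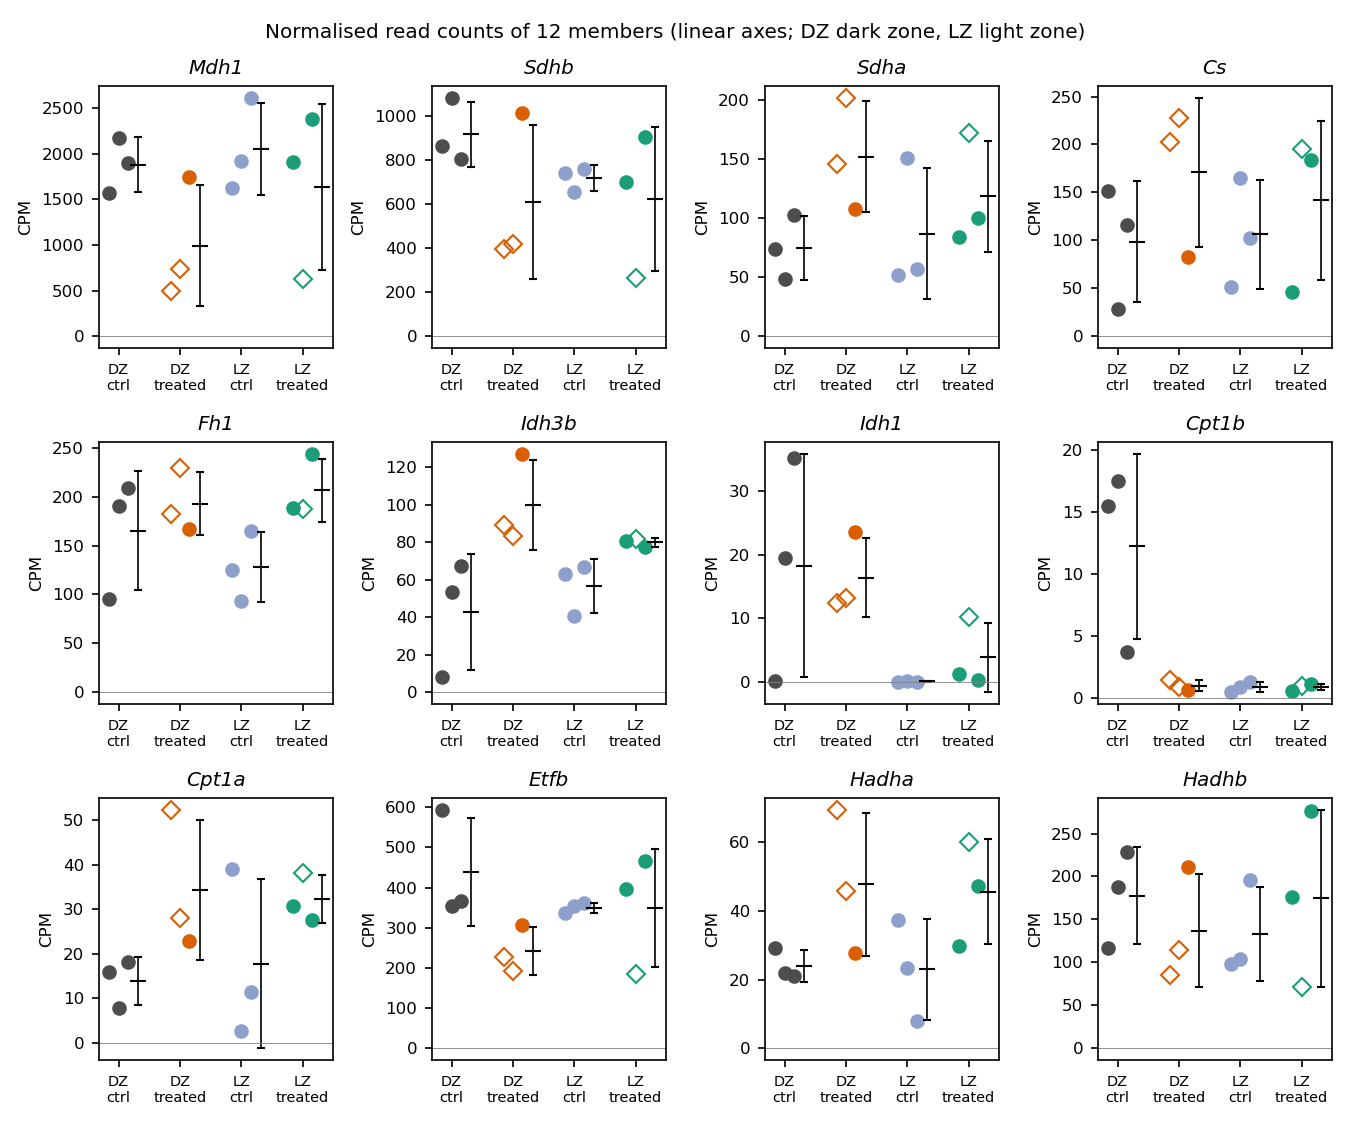
CPM (TMM scaling, linear axes) of 12 members in the 4 groups: each point is a library, open diamonds are the 3 libraries that stood apart, and the black dash and bar are the mean and SD of 3 libraries. In the Mdh1 panel the diamonds sit at 498 to 742 CPM, and in the Cpt1b panel only the dark zone control points are above 1.45 CPM.

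Fatty acids are passed to carnitine by carnitine palmitoyltransferase 1, the rate-limiting step of their entry, carried across the inner membrane by Slc25a20 and returned to CoA by Cpt2. Cpt1b, known as the muscle form (mm10 chr15:89416405-89425863, minus strand), was at 15.5, 17.6 and 3.71 CPM in dark zone control and 1.45, 0.853 and 0.641 CPM in dark zone treated. Light zone control libraries held 0.458, 0.861 and 1.25 CPM and light zone treated libraries 0.585, 0.957 and 1.08 CPM. All 3 dark zone controls lay above the other 9 libraries, whose range was 0.458 to 1.45 CPM, and the lowest of the controls was 3.71 CPM. The dark zone treatment difference was -3.63 ± 0.80 on the log2 scale, with an edgeR unadjusted p of 0.000874 and an adjusted p of 0.528, and the DESeq2 adjusted p was 0.00146. With 9 libraries it was -4.23, with a DESeq2 adjusted p of 0.0452, and leaving out each library in turn gave -4.06 to -3.28. Between the control zones, light minus dark, the difference was -3.83 ± 0.81, with an edgeR adjusted p of 1 and a DESeq2 adjusted p of 0.000441, or 0.00470 with 9 libraries. Both differences rest on the same 3 dark zone controls. The difference between the treatment effects of the zones was 3.66 ± 1.06 (edgeR adjusted p = 1; DESeq2 adjusted p = 0.211).

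Part of the Cpt1b exons also belong to an annotated read-through gene. Gm44502 shares 2744 of the 3372 exon bases of Cpt1b on the same strand, and reads from these bases cannot be told apart. Gm44502 held 25.3, 18.9 and 12.7 CPM in dark zone control, 9.82, 9.32 and 5.45 CPM in dark zone treated, 0.458, 0.574 and 15.8 CPM in light zone control and 7.96, 7.76 and 9.03 CPM in light zone treated. Its dark zone controls lay above its dark zone treated libraries as those of Cpt1b did, but light zone control replicate 3 was inside the range of the dark zone controls. The sources used here do not say how the authors assigned shared reads.

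Cpt1a, the form of most other tissues, was at 15.9, 7.79 and 18.1 CPM in dark zone control and 52.3, 28.1 and 22.8 CPM in dark zone treated, where the treated libraries lay above the controls without overlap. Its difference was 1.30 ± 0.83 (edgeR adjusted p = 0.558; 0.73 with 9 libraries), opposite in sign to that of Cpt1b. Light zone control libraries spanned 39.1, 2.75 and 11.5 CPM and light zone treated libraries 30.8, 38.2 and 27.7 CPM, and these groups overlapped. Slc25a20 was at 0 in light zone control replicate 2 and at 46.4 CPM in replicate 1 of that group. Cpt2 spanned 0.137 to 27 CPM within dark zone control alone, so neither gene gave a difference beyond its spread.

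Acyl-CoA dehydrogenases start each round, Acadvl on very long, Acadl on long, Acadm on medium and Acads on short chains. Acadvl was at 0, 4.5 and 4.88 CPM in dark zone control and 19.2, 29.5 and 12.1 CPM in dark zone treated. The dark zone groups did not overlap, and the difference was 2.69 ± 1.5 (edgeR adjusted p = 0.530; 1.97 with 9 libraries). Its size is uncertain, since a control library was at 0. In the light zone Acadvl was at 6.48, 4.25 and 4.08 CPM in control and 0.76, 28.7 and 17 CPM in treated libraries, which overlapped. Acadvl shares 1151 exon bases with Dvl2 on the opposite strand. Acadm was at 37.4, 49.5 and 42.6 CPM in dark zone control and 23.5, 25.8 and 22.6 CPM in dark zone treated, a difference of -0.85 ± 0.67 (edgeR adjusted p = 0.618; -0.92 with 9 libraries) between groups that did not overlap. Its light zone treated libraries, at 30.7, 26.1 and 66.8 CPM, lay above the dark zone treated ones, by 0.78 ± 0.67 (edgeR adjusted p = 1; 1.12 with 9 libraries). With library totals the Acadm groups overlapped in both of these comparisons. Acadl was steadier, at 87.6 to 196 CPM over all libraries, and Acads ran from 0.175 to 15.9 CPM.

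The following steps are served by the trifunctional protein, whose alpha subunit Hadha carries hydratase and hydroxyacyl-CoA dehydrogenase activity and whose beta subunit Hadhb is a thiolase, and for shorter chains by Echs1, Hadh and Acaa2. Hadha and Hadhb lie head to head, and the region between them is shown because the ratio of their counts differed between libraries. The stretch is the RefSeq promoter of Hadhb on GRCm38.p6, chr5:30155003-30155302, plus strand. Capitals mark the 85 bases between the gene bounds of GENCODE M21 (mm10), where Hadha, read leftward, begins at 30155162 and Hadhb, read rightward, at 30155248. RefSeq sets other start sites: its Hadha promoter is chr5:30154931-30155230 on the minus strand, and most of it lies within the stretch shown. Of the 300 bases of the Hadhb stretch shown 60.7% are G or C.
Hadha-Hadhb: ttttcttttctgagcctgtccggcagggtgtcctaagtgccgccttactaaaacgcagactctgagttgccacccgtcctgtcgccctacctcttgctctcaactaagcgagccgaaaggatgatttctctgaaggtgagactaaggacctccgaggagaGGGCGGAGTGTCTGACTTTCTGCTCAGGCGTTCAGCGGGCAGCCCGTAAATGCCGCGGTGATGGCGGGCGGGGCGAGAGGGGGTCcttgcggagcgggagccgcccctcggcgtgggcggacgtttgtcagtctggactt
Hadha was at 29.2, 21.8 and 20.9 CPM in dark zone control, 69.5, 45.8 and 27.9 CPM in dark zone treated, 37.5, 23.3 and 8.01 CPM in light zone control and 29.7, 60.1 and 47.1 CPM in light zone treated. Hadhb was at 116, 188 and 229, 85.4, 114 and 211, 98.3, 104 and 195 and 176, 70.8 and 277 CPM in the same groups. Neither gene separated any groups with 12 libraries. The ratio of Hadhb to Hadha counts was 1.18 to 2.48 in the 3 libraries that stood apart and 2.62 to 24.4 in the other 9. Hadhb has processed pseudogenes of near-identical sequence, so part of its reads may be assigned elsewhere.

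Acaa2, the thiolase of medium chains, was at 44.1, 38.2 and 52.5 CPM in dark zone control and 56.5, 63 and 88.7 CPM in dark zone treated, without overlap, with a difference of 0.63 ± 0.84 (edgeR adjusted p = 0.774; 0.997 with 9 libraries). Its light zone libraries ran from 9.01 to 88.4 CPM with overlap. Hadh, the hydroxyacyl-CoA dehydrogenase of shorter chains, ran from 15.8 to 64.6 CPM, and the treatment effects of the zones differed by 0.81 ± 0.74 (edgeR adjusted p = 1; 1.12 with 9 libraries). Echs1, the short-chain hydratase, was at 6.17, 37.6 and 34.5 CPM in dark zone control and 157, 30.8 and 89.1 CPM in light zone control, which overlapped.

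Unsaturated fatty acids need the isomerases Eci1 and Eci2 and the reductase Decr1. Decr1 was at 16.2, 37.4 and 17.5 CPM in light zone control and 6.38, 11.5 and 0.155 CPM in light zone treated, without overlap under TMM scaling. With library totals these groups overlapped, since light zone treated replicate 2 was at 16.6 CPM and light zone control replicate 1 at 14.3 CPM. The Decr1 difference was -1.97 ± 1.14 (edgeR adjusted p = 0.704) and -2.83 with 9 libraries. The lowest treated value, 0.155 CPM in replicate 3, was 3 counts, at the floor, so the size of both differences is uncertain. Eci2 was at 0.327 and 0.402 CPM in light zone control replicates 1 and 2 and at 58 CPM in replicate 3, while Eci1 stayed at 30.6 to 104 CPM.

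Electrons of the acyl-CoA dehydrogenases pass to the electron transfer flavoprotein, a dimer of Etfa and Etfb, and on to ubiquinone by Etfdh. Etfb was at 594, 355 and 367 CPM in dark zone control and 226, 192 and 308 CPM in dark zone treated, and at 337, 353 and 361 CPM and 396, 185 and 467 CPM in light zone control and treated. Dark zone treated libraries lay below dark zone controls without overlap under TMM scaling, by -0.86 ± 0.38 (edgeR unadjusted p = 0.0456, adjusted p = 0.528), and by -0.50 with 9 libraries. With library totals these groups overlapped, since dark zone treated replicate 1 was at 321 CPM and dark zone control replicate 2 at 289 CPM. In the light zone the only low library was the one that stood apart, at 185 CPM. The difference between the effects was 0.85 ± 0.53 (edgeR adjusted p = 1; 0.81 with 9 libraries). Etfb values lay midway between whole numbers in 6 libraries, and 617 exon bases are shared with Gm45233. Etfa was at 312, 262 and 173 CPM in dark zone control and 99.7, 102 and 262 CPM in dark zone treated, where replicate 3 lay inside the range of the controls. Under TMM scaling Etfa and Etfb of the 3 libraries lay below all other 9; with library totals both overlapped them. Etfdh was at 0 in light zone control replicate 2 and light zone treated replicate 1 and at 42.1 CPM in light zone treated replicate 3.

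**Figure D5:**
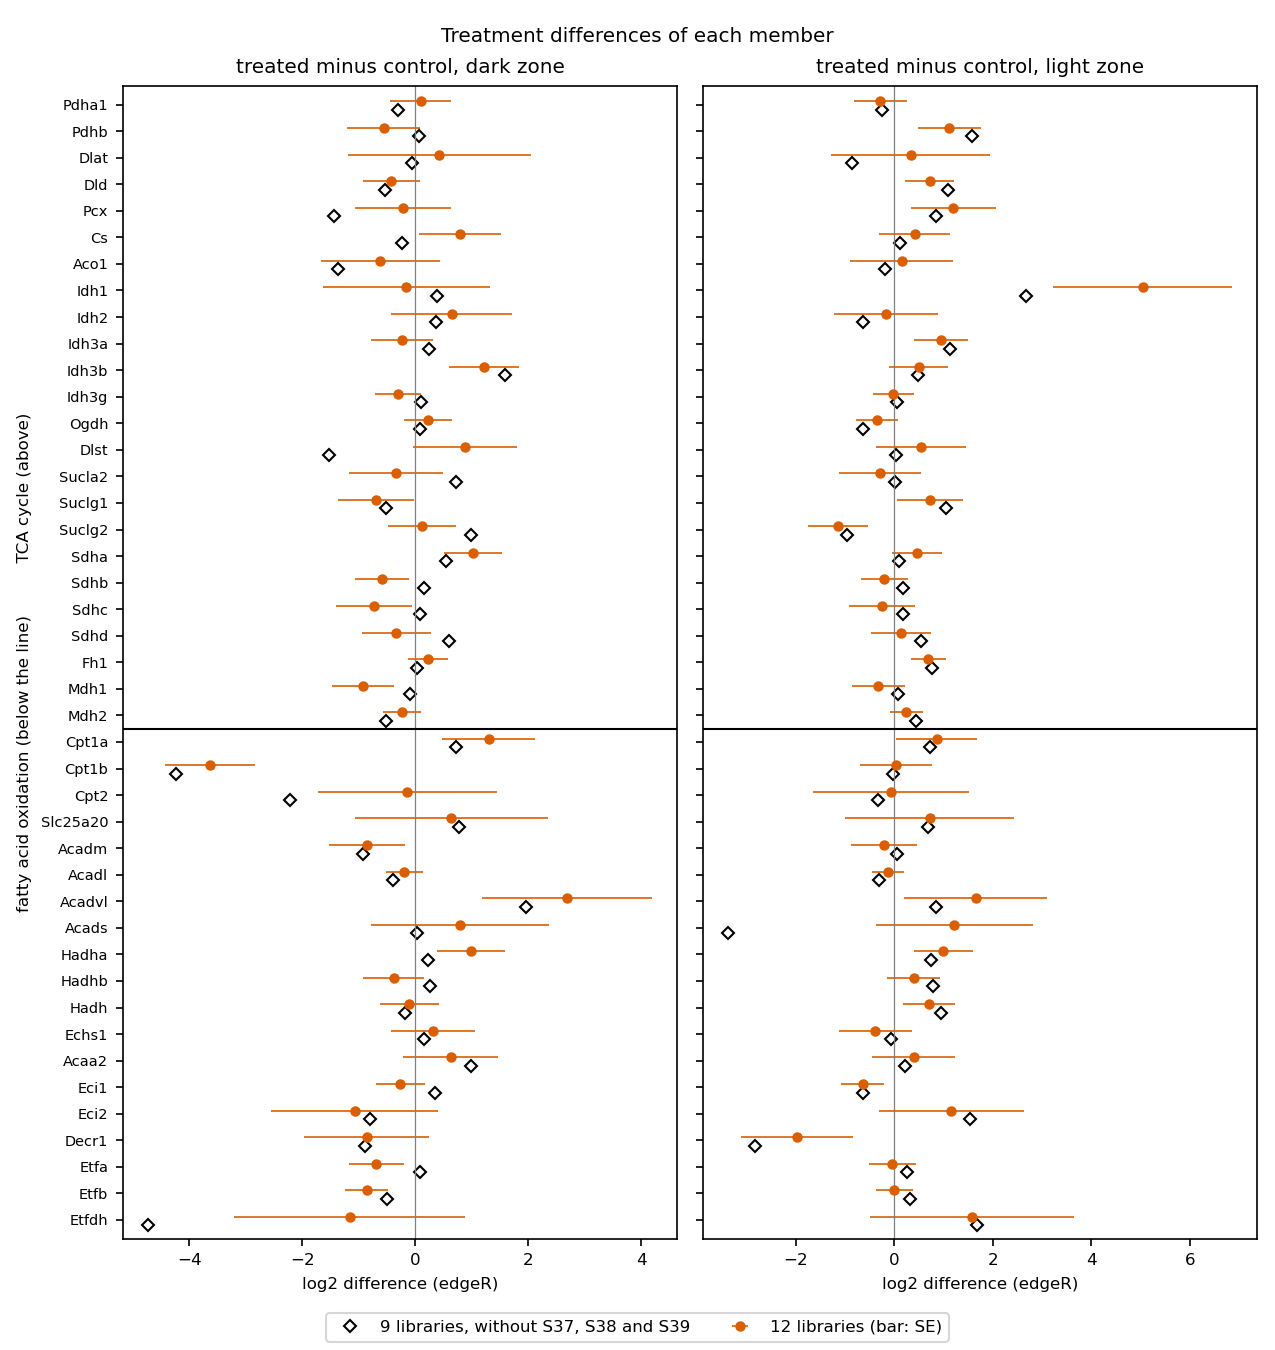
Log2 differences of treated minus control libraries for each of the 43 members, in the dark zone (left) and the light zone (right): filled circles with SE bars are from all 12 libraries and open diamonds from the 9 without columns S37, S38 and S39. For Cpt1b in the dark zone both marks lie below -3, at -3.63 and -4.23, and for Sdhb, Sdhc, Sdhd and Etfa in the dark zone the diamonds lie right of 0 and the circles left of it.

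Groups that did not overlap under TMM scaling can be counted over the members. With library totals the groups overlapped for Acadm and Etfb in the dark zone, Decr1 in the light zone, and Acadm and Idh3b between the treated zones. The other members named here stayed apart. Counts over all genes with library totals were not made. With 12 libraries, 5 of 43 members were higher in every dark zone treated library than in every dark zone control (Idh3b, Sdha, Cpt1a, Acadvl and Acaa2), where 12.5% of all genes were, and 3 were lower (Cpt1b, Acadm and Etfb), beside 11.2%. In the light zone 3 were higher with treatment (Idh1, Idh3b and Fh1; 5.82% of all genes) and 1 was lower (Decr1; 5.49%). Between the control zones 0 were higher in the light zone (4.47%) and 5 were lower (Pdhb, Idh3a, Idh3g, Sdhb and Cpt1b; 5.6%). Between the zones of treated mice 1 was higher in the light zone (Acadm; 2.24%) and 2 were lower (Idh1 and Idh3b; 3.55%). With 9 libraries the dark zone counts were 10 higher and 6 lower, where single-library groups separate 26.2% and 24.4% of all genes, and the light zone counts were 10 higher and 3 lower, beside 11% and 11.9%. Between the zones of treated mice 16 members were then higher and 16 lower in the light zone, beside 30.4% and 33.3% of all genes, since a single dark zone library entered.

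The 9 members that limma-voom with quality weights called for dark zone treatment, named here after their values were seen, were Acadvl and Sdha among the higher genes (9.86% of all genes) and Cpt1b, Etfa, Etfb, Mdh1, Sdhb, Sdhc and Sdhd among the lower ones (15.6%). Their limma adjusted p-values ran from 0.00575 to 0.0492. Of the 7 lower members, Sdhb, Sdhc, Sdhd and Etfa had edgeR differences of -0.59, -0.73, -0.34 and -0.69 with 12 libraries and of 0.16, 0.08, 0.60 and 0.08 with 9.

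Spread within groups was read as the ratio of the highest to the lowest library. Medians were taken over the 43 members, leaving out in each group any gene with a 0 there. The highest library was 2.32 times the lowest in dark zone control and 2.15 times in dark zone treated. It was 2.77 times the lowest in light zone control and 3.33 times in light zone treated. Over all genes, with the same omission, these medians were 2.46, 2.58, 2.58 and 4.28 times. In 13, 3, 13 and 12 members of these groups the libraries differed by more than 5-fold or included a 0, which is 30.2%, 6.98%, 30.2% and 27.9% of them, beside 36.2%, 27.3%, 37.7% and 49.8% of all genes.

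Other genes of the pathways were read from a list of 33 TCA-related and 38 fatty acid-related genes, of which 29 and 32 were listed and tested. By edgeR 0 of them passed in any comparison. In dark zone treated, 6 and 5 were above and 3 and 2 below dark zone control without overlap under TMM scaling, where 12.5% and 11.2% of all genes were. In the light zone 4 and 1 were above and 1 and 1 below, beside 5.82% and 5.49% of all genes. With 9 libraries the counts were 10 and 9 above and 7 and 8 below in the dark zone (26.2% and 24.4% of all genes), and 6 and 1 above and 2 and 4 below in the light zone (11% and 11.9%). Me2, the mitochondrial malic enzyme that turns malate into pyruvate, was at 40.4, 31.6 and 31.9 CPM in light zone control and 114, 66.6 and 115 CPM in light zone treated. All 3 treated libraries were above all 3 controls, by 1.51 ± 0.42 (edgeR adjusted p = 0.674, DESeq2 adjusted p = 0.0235), and by 1.74 with 9 libraries (DESeq2 adjusted p = 0.00151). Sdhaf4, an assembly factor of succinate dehydrogenase, was at 403, 439.9 and 375 CPM in light zone control and 364, 31.5 and 297 CPM in light zone treated, and at 31.5 to 44.4 CPM in the 3 libraries against 297 CPM or more in the 9.

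In the dark zone Pck2, the mitochondrial form of the enzyme that makes phosphoenolpyruvate from oxaloacetate, was at 3.36, 0.0506 and 4.77 CPM in control and 43.3, 42.7 and 11 CPM in treated libraries. Slc25a10, a dicarboxylate carrier, was at 5.62, 0.455 and 11.5 CPM and 34, 48.3 and 28.3 CPM. For both genes the groups did not overlap, with log2 differences of 3.57 and 2.66 (2.03 and 2.30 with 9 libraries), and neither passed the edgeR test. Pck2 had 1 count in dark zone control replicate 2, below the floor, so the size of its difference is uncertain. Among fatty acid genes, Pnpla2, the lipase that starts triglyceride breakdown, was at 2.88, 0.81 and 1.43 CPM in dark zone control and 39.1, 37.7 and 14.2 CPM in treated libraries, and Mlycd, which removes the Cpt1 inhibitor malonyl-CoA, at 3.7, 0.961 and 1.27 and 22, 16.5 and 4.29 CPM. Acad9, a complex I assembly factor related to the acyl-CoA dehydrogenases, was at 1.17, 0.455 and 12.3 and 14.3, 20.7 and 19.2 CPM. In these 3 genes replicate 3, which did not stand apart, was above the controls too. Acsl4, which activates polyunsaturated fatty acids, was lower in every light zone treated than in every light zone control library, at 15.1, 11.8 and 2.06 CPM against 18.3, 27.4 and 18.5 CPM.

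Between the control zones Pdk1, a kinase that inhibits pyruvate dehydrogenase, held 46.4, 6.98 and 2.81 CPM in dark zone and 1.44, 0.115 and 1.76 CPM in light zone libraries. Got1, the cytosolic aspartate aminotransferase, was at 2.95, 29 and 7.11 and 0.72, 1.15 and 2.83 CPM, and Slc25a11, the 2-oxoglutarate carrier of the malate-aspartate shuttle, at 100.1, 91.5 and 84.3 and 58.5, 74.3 and 31.8 CPM. Fabp5, a fatty acid binding protein, held 18.4, 0.0506 and 21.6 CPM in dark zone and 33.2, 52.5 and 29 CPM in light zone libraries. The groups did not overlap for any of these 4 genes, and dark zone control replicate 2 held the lowest Fabp5 value of all libraries. In treated mice Cd36, a fatty acid transporter, held 4.12, 11 and 7.33 CPM in dark zone and 28.4, 29.2 and 35.4 CPM in light zone libraries, and Decr2, the peroxisomal reductase, at 11.6, 12.1 and 12 and 2.52, 10.9 and 2.74 CPM.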

How the data were processed

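RNA-seq libraries from 1000 sorted spleen cells each were made by the authors with the SMART-Seq v4 and Nextera XT kits, per the labels' protocols, which keep neither strand nor molecular identifiers. The submitters' processing notes name BWA and mm10; the sources used here give no versions, counting program or annotation. Expected counts, that is estimated counts per gene symbol, were deposited by the authors with no scaling. Their values are whole or lie midway between whole numbers (5 of the 43 members have midway values); midway values were rounded up and blank cells read as 0. The sources used here do not say how midway values arose, so values of genes with several transcripts may not be plain counts per gene.

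All 12 libraries entered a single fit in edgeR 4.0.16 (R 4.3.3): TMM, the filter filterByExpr (minimum count 10, minimum total 15), a term per group, robust quasi-likelihood tests, two-sided, with Benjamini-Hochberg adjustment over 12081 genes and a threshold of 0.05. The SE of a log2 difference was taken from its size and the F value (size over root F). DESeq2 1.42.0 and limma 3.58.1 (voom with sample quality weights), other scalings, no filter, 9 libraries and each library left out were alternatives; DESeq2 and library totals on the 9 libraries were added after seeing the data. The fits were tested on simulated data. The pathway genes, marker lists and rules were chosen with earlier results of these data known. Apart from a fixed set of central genes, members were named in a comparison where its groups did not overlap and the higher group averaged at least 10 CPM, or by the smallest unadjusted p for the difference between effects. Positions are from GENCODE M21 (mm10) and promoters from RefSeq (GRCm38.p6). Near-identical transcripts were searched with blastn 2.17.0. Some genes of these lists are counted but not reported here by name.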

Additional observations from a re-analysis of the deposited data

How the results depend on the processing

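The number of genes passing was 0 under each edgeR alternative, leaving out each library in turn included (0 to 0), and 0 with the replicate block. Fits of only the groups compared were run for 4 comparisons, not for the difference between effects. DESeq2 passed 72, 216, 113, 1 and 16 genes for treatment in the dark zone, treatment in the light zone, the control zones, the treated zones and the difference between effects, and 217, 432, 116, 365 and 230 with 9 libraries, while limma-voom with quality weights passed 3073 in the dark zone; the cause was not tested. On data simulated for dark zone treatment with the spread fitted by edgeR, 12038 genes passed the filter. DESeq2 called 101 of the 11881 genes simulated without change, which include genes under the filter, and edgeR 0. In the same data edgeR recovered 19 of 50 genes changed 16-fold and 0 of 50 changed 2-fold, and DESeq2 38 and 6. With a fixed spread (dispersion of 0.05) edgeR called 10 unchanged genes and DESeq2 23, and both recovered 50 of 50 changed 4-fold. Apart from the changed genes, all simulated libraries had the same mean profile, so none stood apart as in the real data. The simulation therefore cannot tell which number of calls is right.

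Median log2 differences of the TCA cycle moved to 0.22 (library totals) and 0.14 (limma-voom) for dark zone treatment, to 0.65 (library totals) for light zone treatment and to 0.074 (9 libraries with library totals) for the difference between effects. Those of fatty acid oxidation moved to 0.30 (library totals) for dark zone treatment, and for the treated zones to 0.38 (9 libraries), 0.41 (9 libraries, DESeq2) and 0.26 (9 libraries, library totals). Leaving out each library in turn gave TCA medians of -0.35 to 0.01, 0.14 to 0.42, -0.29 to 0.00, -0.28 to 0.13 and 0.14 to 0.51 in the 5 comparisons, and fatty acid oxidation medians of -0.44 to 0.00, -0.00 to 0.40, -0.35 to -0.05, -0.04 to 0.21 and -0.15 to 0.65. For dark zone treatment, the 9 libraries turned the sign of Sdhb to 0.16 (0.14 by DESeq2, 0.22 with library totals), Sdhc to 0.085 (0.070, 0.14), Sdhd to 0.60 (0.57, 0.61) and Etfa to 0.084 (0.057, 0.15), and Sdhd ranged from -1.18 to 0.014 over the libraries left out in turn, the highest without dark zone treated replicate 1.

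Replicate numbers were not taken to pair libraries: of 18 same-numbered pairs 3 had correlated deviations over 0.1 (range -0.31 to 0.54), and 4 were the best match of their library. With the replicate block the TCA medians were -0.10, 0.35, -0.17, -0.07 and 0.41 and the fatty acid oxidation medians -0.17, 0.01, -0.22, 0.10 and 0.32.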

Other observations

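Across the 43 members, Spearman's rho between transcript length and the log2 treatment difference in the dark zone was 0.27 with 12 libraries and -0.13 with the 9, beside 0.12 over 11266 genes with a length; genes are not independent replicates, and the values are a description.

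Me2 and Sdhaf4 stand outside the 43 members. In dark zone control and treated libraries Me2 was at 43, 21.3 and 40.9 and 46.5, 70.8 and 45.8 CPM, all treated libraries above all controls, as in the light zone. Sdhaf4 was at 522, 571 and 348 CPM in dark zone control and 34.7, 44.4 and 348 CPM in dark zone treated, where replicate 3 was close to the lowest control. Map3k15, which shares exon bases with Pdha1, was at 10.5 to 14.7 CPM in the 3 libraries that stood apart and at 48.6 to 71.9 CPM in the other 9.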
